A study of Mus musculus with 20 samples.

Results

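Kidneys of SP mice treated with an inhibitor of the enzyme MAT2A (MAT2Ai) were compared with kidneys of SP mice given placebo. The libraries were chosen by the genotype and treatment in their sample labels, which gave 5 SP MAT2Ai and 5 SP placebo libraries, 10 of the 20 in the series. SP (Sweet Pee) mice carry a missense mutation of *Slc5a2*, the gene of the glucose carrier SGLT2, in every cell of the body, and all mice were C3H/HeJ males kept on a high-fat diet (HFD) throughout. After 8 weeks of HFD, SP mice were injected i.p. 3 times a week for 8 weeks with the inhibitor, a fluorinated and chlorinated styryl derivative of N-methylaniline, at 10 mg/kg (SP MAT2Ai) or with DMSO (SP placebo), and RNA of the kidney cortex was sequenced. WT mice of the same strain and diet received the same inhibitor (WT MAT2Ai, 5 libraries) or DMSO (WT placebo, 5 libraries). Their values are set beside the SP values. Their libraries also share the filter, the scaling and the fit that give every SP SE and p. The comparison asks which genes of the SP kidney differ under an inhibitor of the enzyme that makes S-adenosylmethionine (SAM). The study describes SAM in kidneys of treated SP mice as lower by a trend. It adds that further effects of the inhibitor were not fully explored.

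MAT2A joins methionine to ATP and so makes SAM, the methyl donor for DNA, RNA and histone methyltransferases and for the arginine methyltransferases that shape splicing. The transcription factor p53 is kept low by the ligase MDM2 and, once released, switches on genes for cell cycle arrest, cell death and DNA repair, *Mdm2* included. FOS, JUN and EGR1 belong to the immediate early genes, which growth factors and stress switch on within minutes and which tissue handling can also raise.

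Reads assigned to genes numbered 63058465 to 79339949 in the 10 SP libraries, and 12.4% to 19.5% of these came from the mitochondrial genome. Levels below are in CPM, the count of a gene relative to the size of its library after TMM normalization, and 16152 genes passed the filter on low counts. Markers of the kidney cortex were abundant in both groups: *Lrp2* of the proximal tubule ranged from 1353 to 1984 CPM and *Umod* of the thick ascending limb from 1014 to 2211 CPM, while *Adipoq* of fat cells did not exceed 0.0882 CPM. On the first principal component of the SP libraries alone (20.8% of the variance) SP MAT2Ai 2, 3 and 5 stood at 20.6, 40.9 and 23.5. SP MAT2Ai 1 and 4 stood at −7.32 and −7.51, among the placebo libraries, which ranged from −23.7 to 5.09.

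*Slc5a2*, the mutated gene, checks the genotype labels. It lies at chr7:128265657-128272430 on the plus strand of mm10. It stood at 241, 282, 70.1, 40.2 and 56.7 CPM in SP placebo 1 to 5 and at 72.6, 47.0, 43.5, 85.9 and 59.96 CPM in SP MAT2Ai 1 to 5, while WT libraries held 229 to 518 CPM. The libraries labelled SP placebo 1 and 2 lay above the other 8 SP libraries and reached into the WT range, and the 2 SP groups overlapped. The log2 fold change of *Slc5a2* in SP MAT2Ai over SP placebo was −1.16 ± 0.40 (SE; edgeR quasi-likelihood, adjusted p = 0.804), with a mean ± SD of 138 ± 114 CPM in the 5 placebo and 61.8 ± 17.7 CPM in the 5 inhibitor libraries, and it became 0.16 without the libraries labelled SP placebo 1 and 2. Every SP placebo mean below includes these 2 libraries. Many, but not all, of the main values and list counts that moved by over 1.5 times without them are given with the value they took. A result without such a value is not thereby shown to be stable.

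*Mat2a*, the gene of the drug target, stood at 363, 265, 379, 474 and 335 CPM in SP placebo 1 to 5 and at 362, 368, 317, 485 and 405 CPM in SP MAT2Ai 1 to 5. The groups overlapped almost wholly, and the log2 fold change was 0.09 ± 0.14 (adjusted p = 0.989), or −0.03 without the libraries labelled SP placebo 1 and 2. In WT kidneys *Mat2a* stood at 0.37 ± 0.14 (adjusted p = 0.231).

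In SP MAT2Ai over SP placebo 3 genes rose at an adjusted p under 0.05 (edgeR quasi-likelihood test with Benjamini-Hochberg adjustment over the 16152 genes), which is 0.0186% of the genes tested. No gene fell (0%). At an unadjusted p under 0.05, 497 genes were higher (3.08%) and 459 lower (2.84%), and the 5 libraries of one group lay wholly above the other for 171 genes in SP MAT2Ai (1.06%) and for 84 genes in SP placebo (0.52%). Log2 fold changes were positive for 50.6% of genes, with a median of 0.00189. DESeq2, limma-voom with sample weights and the edgeR likelihood ratio test called 22, 14 and 18 genes higher and 5, 3 and 2 lower.

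*Ly6e* encodes a GPI-anchored surface protein that interferon raises in many cells, and it lies at chr15:74955051-74959905. It stood at 71.0, 68.3, 79.3, 77.9 and 88.0 CPM in SP placebo 1 to 5. The SP MAT2Ai libraries held 421, 242, 175, 173 and 149 CPM, each above every placebo library. It rose by a log2 fold change of 1.59 ± 0.25 (adjusted p = 0.0209). Its relative *Ly6a* nearby (chr15:74994877-74998031), which encodes the stem cell antigen Sca-1, ranged from 435 to 518 CPM in SP placebo and from 590 to 902 CPM in SP MAT2Ai, highest in the same library as *Ly6e*, SP MAT2Ai 1 (0.47 ± 0.16, adjusted p = 0.804). Of 12 measured members of the Ly6 family and its surface relatives only these 2 had libraries wholly above placebo. Of all genes tested 1.06% did. *Gpihbp1*, which carries lipoprotein lipase across capillaries (−0.61 ± 0.27), and *Plaur*, the urokinase receptor (−0.61 ± 0.25), had negative values, which became −0.32 and −0.36 without the libraries labelled SP placebo 1 and 2, and the median of the list was −0.22 (−0.07 without SP placebo 5).

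*Psrc1*, a microtubule-binding protein that p53 controls, lies at chr3:108383839-108388231. It was scarce, at 0.218, 0.213, 0.0937, 0.160 and 0.0834 CPM in SP placebo 1 to 5 and at 0.861, 1.42, 0.767, 1.03 and 0.730 CPM in SP MAT2Ai 1 to 5. All inhibitor libraries lay above all placebo libraries (53 counts in all against 324), and it rose by 2.63 ± 0.41 (adjusted p = 0.0209). *Dscaml1*, an adhesion molecule of neurons, lies at chr9:45426628-45753712 and was scarcer still. It held 2, 2, 1, 3 and 5 counts in SP placebo 1 to 5 and 56, 25, 37, 19 and 31 counts in SP MAT2Ai 1 to 5, so the groups did not overlap, and it rose by 3.72 ± 0.56 (adjusted p = 0.0209).

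**Figure D1:**
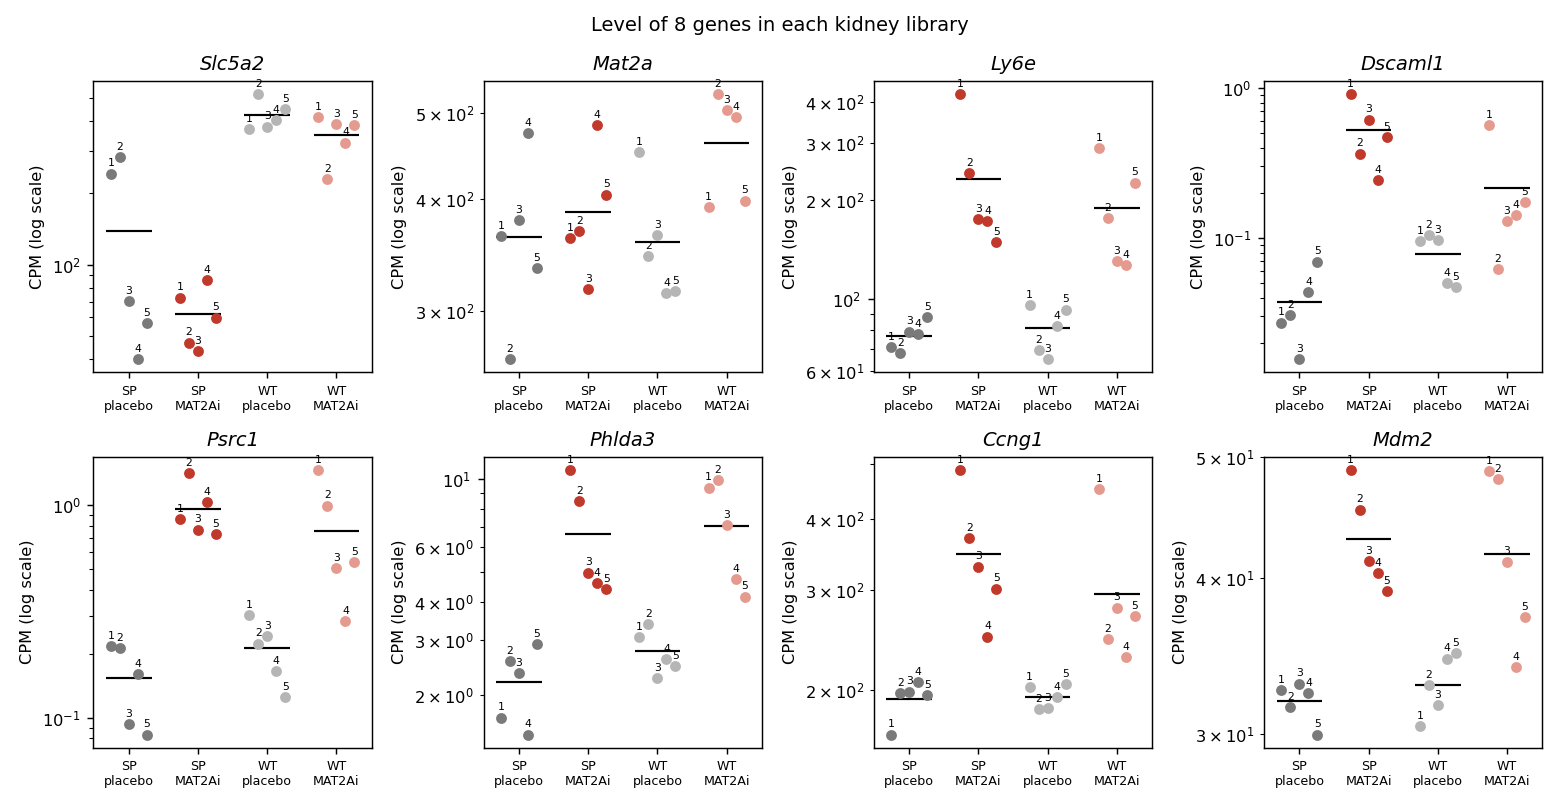
Level of 8 genes in each library, in CPM on a log axis, by group; each point is 1 library with its replicate number and each line is a group mean (n = 5). *Ly6e*, *Dscaml1*, *Psrc1*, *Phlda3*, *Ccng1* and *Mdm2* lie higher in every SP MAT2Ai library than in every SP placebo library, *Mat2a* overlaps, and the libraries labelled SP placebo 1 and 2 hold 241 and 282 CPM of *Slc5a2*.

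The calls were thin. Without any 1 of the 5 SP placebo libraries, or without SP MAT2Ai 2, no gene passed; without SP MAT2Ai 1 or 3 the count was 3, without SP MAT2Ai 4 it was 7 and without SP MAT2Ai 5 it was 4. Without both libraries labelled SP placebo 1 and 2 no gene passed, 348 were higher and 240 lower at an unadjusted p under 0.05, and the smallest adjusted p was 0.188. The values themselves moved little: without those 2 libraries *Ly6e* stood at 1.51 (adjusted p = 0.670), *Psrc1* at 3.08 (0.188) and *Dscaml1* at 3.52 (0.616), and leaving out any single SP library kept them within 1.27 to 1.72, 2.44 to 2.79 and 3.43 to 4.05.

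**Figure D2:**
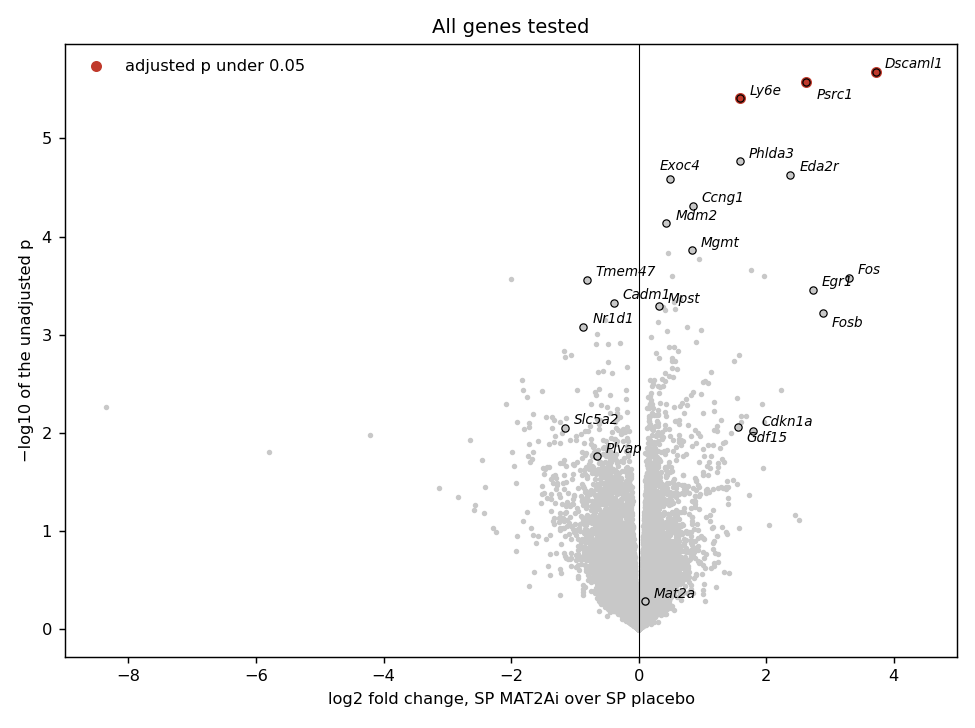
All 16152 genes tested, with the log2 fold change of SP MAT2Ai over SP placebo on the horizontal axis and −log10 of the unadjusted p of the edgeR quasi-likelihood test on the vertical axis; circled genes are named. The 3 genes in red, with an adjusted p of 0.0209, lie at 1.59, 2.63 and 3.72, and most of the genes next to them have positive values.

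Several of the genes next in order are ones that p53 switches on. *Phlda3*, which holds back the kinase AKT, stood at 1.69, 2.57, 2.34, 1.49 and 2.92 CPM in SP placebo 1 to 5 and at 10.7, 8.44, 4.97, 4.60 and 4.38 CPM in SP MAT2Ai 1 to 5. The groups did not overlap and SP MAT2Ai 1 and 2 were highest (1.59 ± 0.28, adjusted p = 0.0689). *Eda2r*, a death receptor of the TNF receptor family, ranged from 0.228 to 0.594 CPM in SP placebo and held 3.28, 2.54, 1.63, 1.13 and 1.63 CPM in SP MAT2Ai 1 to 5 (2.38 ± 0.43, adjusted p = 0.0691). *Tnfrsf10b*, the receptor of the death ligand TRAIL, ranged from 1.11 to 1.40 CPM against 1.67 to 3.18 CPM (0.95 ± 0.20, adjusted p = 0.248). *Aen*, an exonuclease of apoptotic cells, overlapped by 1 library, at 11.7 to 14.9 CPM against 14.6 to 28.8 CPM (0.64 ± 0.15, adjusted p = 0.359).

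Of the p53 targets that slow the cell cycle, *Ccng1* (cyclin G1) was the most abundant of those described. It stood at 167, 197, 198, 206 and 196 CPM in SP placebo 1 to 5 and at 489, 370, 330, 248 and 302 CPM in SP MAT2Ai 1 to 5, with no overlap (0.85 ± 0.16, adjusted p = 0.112). *Cdkn1a*, which encodes the cyclin-dependent kinase inhibitor p21, stood at 2.94 to 6.23 CPM in SP placebo and at 18.9, 17.1, 22.5, 9.20 and 9.78 CPM in SP MAT2Ai 1 to 5, again apart (1.79 ± 0.63, adjusted p = 0.804). *Zmat3*, an RNA-binding zinc finger protein, overlapped, at 13.4 to 16.2 CPM against 15.5 to 25.8 CPM (0.42 ± 0.14, adjusted p = 0.804).

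The named genes of the feedback and repair arm of the network had values of 0.30 to 0.83. *Mdm2* was the most even: 32.5, 31.5, 32.9, 32.3 and 29.9 CPM in SP placebo 1 to 5 against 48.8, 45.4, 41.3, 40.3 and 39.01 CPM in SP MAT2Ai 1 to 5 (0.43 ± 0.09, adjusted p = 0.148). The lowest inhibitor library lay well above the highest placebo library. *Mgmt*, which removes alkyl groups from guanine, ranged from 4.43 to 8.12 CPM against 8.35 to 13.02 CPM (0.83 ± 0.18, adjusted p = 0.237), and *Polk*, a polymerase that copies past damaged bases, from 5.94 to 6.67 CPM against 6.75 to 9.10 CPM (0.30 ± 0.10, adjusted p = 0.802).

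The p53 targets were also counted over lists by arm, and no test compared the arms. For cell cycle arrest, 11 of 12 measured genes had positive values, 6 of them at an unadjusted p under 0.05, 4 had groups that did not overlap, and the median was 0.49; *Psrc1* was the 1 that passed the test. For cell death and survival the counts were 14 positive of 14, 6 and 3 with a median of 0.25, and for feedback and repair 11 positive of 14, 3 and 3 with a median of 0.10. No member of the 3 lists was lower at an unadjusted p under 0.05. Over all genes tested 50.6% were positive, 3.08% were higher at that p and 1.06% lay wholly above placebo. The lists were chosen with earlier results of these data known. Without the libraries labelled SP placebo 1 and 2 the positive counts were 11, 13 and 9 and the medians 0.57, 0.33 and 0.12. In WT kidneys the 3 medians were 0.50, 0.61 and 0.07. SP MAT2Ai 1 to 5 lay above every placebo library for 21, 27, 26, 16 and 20 of the 40 distinct genes.

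The promoters of the named p53 targets were searched for the p53 half-site, the short element of which p53 binds a pair. These genes were chosen as p53 targets and by their values in these data. The share with a match therefore cannot tell why they were high together, which was not tested. In RefSeq promoters of GRCm38.p6 (mm10), from 250 bases before to 50 after a gene's start, 9.55% of 27025 genes held an exact match on either strand in at least 1 of their windows, and so did 5 of the 10 named genes with a window (*Ccng1*, *Mdm2*, *Aen*, *Cdkn1a* and *Polk*). Counted by window, 6 of their 16 windows and 8.36% of all 32851 held it. The *Aen* windows overlap and share 1 site, which lies before the start in one and after it in the other. For *Cdkn1a* and *Polk* the other window held 0 matches. Other motifs were searched in the genes described further on: the CArG box (1.81% of all genes) and the cyclic AMP response element TGACGTCA (2.03%) were in 0 of 6 immediate early genes, the E-box CACGTG (8.09%) in 1 of 3 clock genes (*Cry1*), and the antioxidant response element TGACNNNGC (14% of all genes) in 0 of 3 detoxification genes. No match in a window says only that these letters are not there. The stretches around the matches before the start are shown 5′ to 3′ on the gene's strand with the half-site in capitals, for *Ccng1* at chr11:40755437-40755496 (minus), *Mdm2* at chr10:117710910-117710969 (minus), *Aen* at chr7:78895912-78895971 (plus) and *Cdkn1a*, which held 2, at chr17:29090881-29090962 (plus).
Ccng1: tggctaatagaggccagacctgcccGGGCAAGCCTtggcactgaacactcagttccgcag
Mdm2: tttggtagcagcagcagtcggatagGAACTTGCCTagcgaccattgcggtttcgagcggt
Aen: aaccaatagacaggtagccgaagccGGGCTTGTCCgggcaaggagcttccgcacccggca
Cdkn1a: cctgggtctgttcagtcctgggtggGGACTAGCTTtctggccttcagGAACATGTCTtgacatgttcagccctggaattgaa

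Immediate early genes were also higher, but not evenly over the libraries. *Fos* stood at 1.56, 0.898, 0.937, 0.583 and 1.14 CPM in SP placebo 1 to 5 and at 3.66, 12.3, 12.5, 2.01 and 20.1 CPM in SP MAT2Ai 1 to 5, apart but with SP MAT2Ai 1 and 4 nearest to placebo (3.30 ± 0.74, adjusted p = 0.261). *Egr1* stood at 2.17 to 4.17 CPM in SP placebo and at 6.27, 24.6, 26.1, 5.92 and 45.6 CPM in SP MAT2Ai 1 to 5 (2.73 ± 0.63, adjusted p = 0.312). *Junb* stood at 11.99 to 17.5 CPM in SP placebo and at 14.8, 38.2, 40.4, 14.0 and 49.2 CPM in SP MAT2Ai 1 to 5 (1.09 ± 0.40, adjusted p = 0.833). In each of the 3 genes SP MAT2Ai 2, 3 and 5 were the high libraries, and for *Junb* libraries 1 and 4 lay inside the placebo range.

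The same 3 libraries were high in *Jun*, the partner of FOS in the AP-1 factor (28.0 to 37.9 CPM in SP placebo; 34.4, 73.3, 92.8, 41.7 and 100.1 CPM in SP MAT2Ai 1 to 5; 1.14 ± 0.33, adjusted p = 0.666), and in *Ier2*, a nuclear immediate early protein (11.02 to 19.6 CPM; 14.8, 32.0, 37.4, 12.2 and 52.0 CPM; 1.01 ± 0.30, adjusted p = 0.706). *Fosb*, a relative of FOS, rested on SP MAT2Ai 5 with 139 of the 209 counts of its group, and its value of 2.89 ± 0.71 (adjusted p = 0.370) became 1.65 without that library. *Ccn1*, a secreted matrix protein, and *Ier5*, a regulator of the heat shock response that p53 can also raise, were less uneven, at 24.7 to 66.7 CPM against 16.6 to 24.8 CPM (1.08 ± 0.32, adjusted p = 0.712) and at 8.30 to 14.2 CPM against 5.94 to 7.82 CPM (0.76 ± 0.19, adjusted p = 0.447).

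Of 13 measured AP-1 genes 12 had positive values (5 at an unadjusted p under 0.05, median 0.28), and of 23 other immediate early genes 19 (8, median 0.43); none was lower at that p and none passed the test. At that p 3.08% of all genes tested were higher. Without SP MAT2Ai 5 the 8 became 4 and 1 gene was lower, and without SP placebo 3 the AP-1 median was 0.18. SP MAT2Ai 5 was the highest inhibitor library for 21 of these 36 genes, and SP MAT2Ai 1 and 4 were the lowest for 12 and 14. Whether the handling of the tissue differed between animals was not tested.

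**Figure D3:**
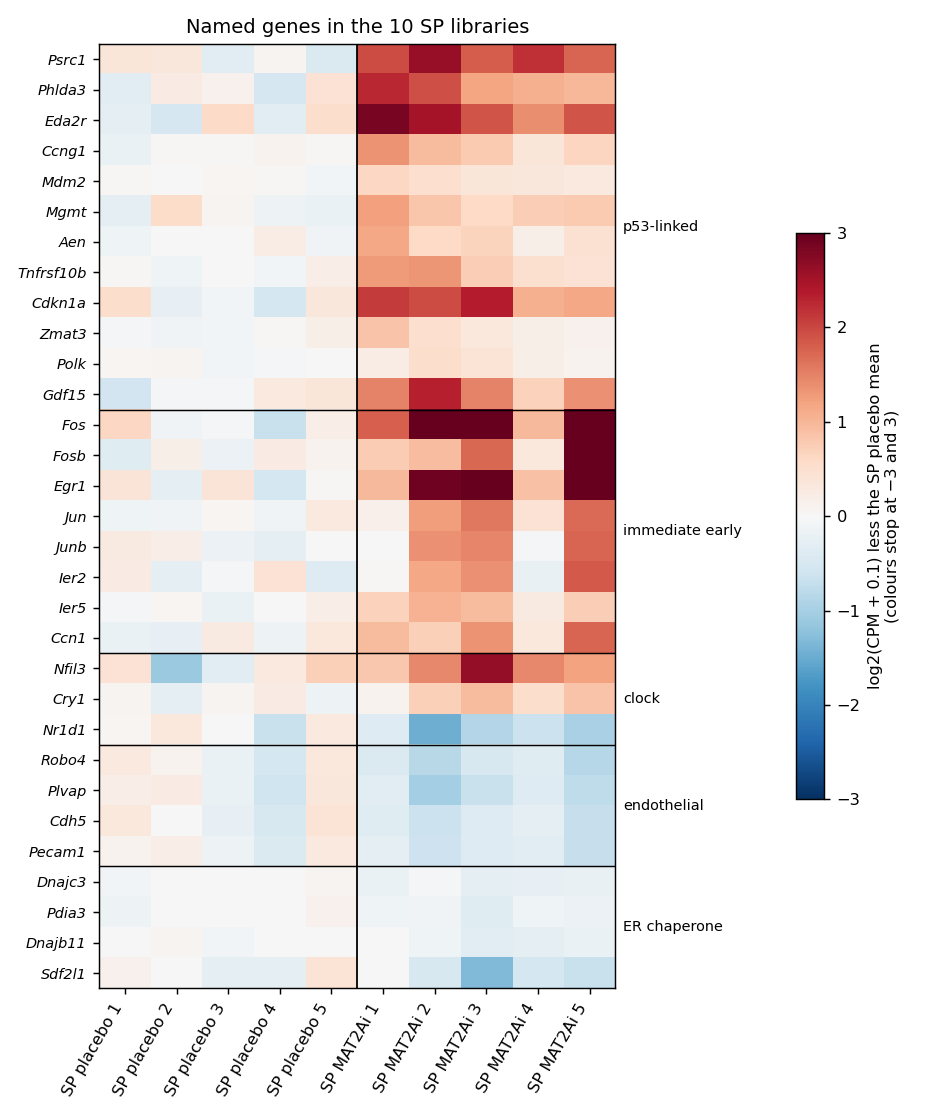
Named genes (rows) in the 10 SP libraries (columns), as log2(CPM + 0.1) less the mean of the 5 SP placebo libraries; red is higher, blue lower, and colours stop at 3 in either direction. The p53-linked genes are red in all 5 SP MAT2Ai libraries, whereas *Fos*, *Egr1*, *Jun*, *Junb* and *Ier2* are reddest in SP MAT2Ai 2, 3 and 5.

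Subunit and adaptor genes of NF-kB, which drives cytokine genes once its inhibitors are degraded, gave small values. Their mRNA does not measure NF-kB activity. In treated SP mice the study reports more of the NF-kB subunit p65 in nuclei by staining. It also reports higher cytokine mRNA there by RT-qPCR. *Nfkb1* stood at 0.05 ± 0.10, *Nfkb2* at 0.34 ± 0.19, *Rela* at 0.14 ± 0.14 and *Relb* at 0.17 ± 0.26, with adjusted p between 0.916 and 0.993, and *Ecsit*, an adaptor of Toll receptor signalling, at 0.05 ± 0.09. Without the libraries labelled SP placebo 1 and 2 *Nfkb1* stood at 0.08 and *Rela* at 0.09, and without SP MAT2Ai 3 *Relb* stood at 0.02. *Tab2*, an adaptor of the kinase TAK1, was the 1 of 26 measured subunits, inhibitors and adaptors whose groups did not overlap, at 65.3 to 71.1 CPM in SP placebo and 74.3 to 83.9 CPM in SP MAT2Ai (0.20 ± 0.08, adjusted p = 0.833). *Nfkbiz*, an inducible cofactor of NF-kB, stood at 0.79 ± 0.36 (adjusted p = 0.834). In all 20 of these 26 genes had positive values, with a median of 0.07. Over all genes tested 50.6% were positive and 1.06% lay apart and higher.

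Among the cytokine, chemokine and adhesion genes that NF-kB controls, *Cxcl1*, which attracts neutrophils, was again high in SP MAT2Ai 2, 3 and 5 (2.75, 22.3, 10.8, 4.22 and 23.7 CPM in SP MAT2Ai 1 to 5 against 1.60 to 8.13 CPM; 1.55 ± 0.68, adjusted p = 0.833). *Icam1*, which holds leukocytes, held 14.4, 44.8, 39.1, 25.2 and 18.6 CPM against 18.04 to 21.04 CPM (0.53 ± 0.34, adjusted p = 0.948; 0.30 without SP MAT2Ai 2). *Il1b* stood at 0.58 ± 0.40 (adjusted p = 0.959), *Ptgs2* at 0.60 ± 0.41 (0.959) and *Ccl2*, whose highest library was SP MAT2Ai 4, at −0.05 ± 0.41 (0.997). Without the libraries labelled SP placebo 1 and 2 *Il1b* stood at 1.05 (unadjusted p = 0.039, adjusted p = 0.9999, edgeR quasi-likelihood) and *Ptgs2* at 0.91. Of 21 measured genes 11 were positive (14 without these 2 libraries), 1 at an unadjusted p under 0.05, with a median of 0.07. Over all genes tested 3.08% were higher at that p. *Tnf* reached at most 0.0897 CPM and *Il6* 0.0304 CPM in SP libraries, and neither passed the filter.

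Further genes with separated groups came from metabolism and stress. *Ephx1*, which opens epoxides, ranged from 21.2 to 25.3 CPM in SP placebo and from 28.0 to 38.1 CPM in SP MAT2Ai (0.55 ± 0.13, adjusted p = 0.359). *Gdf15*, a secreted stress hormone of the TGF-beta family, stood at 3.13 to 6.01 CPM and at 13.2, 24.1, 13.4, 7.64 and 12.3 CPM in SP MAT2Ai 1 to 5 (1.56 ± 0.54, adjusted p = 0.804). *Dglucy*, the mitochondrial D-glutamate cyclase, ranged from 96.9 to 144 CPM against 163 to 205 CPM (0.53 ± 0.12, adjusted p = 0.261), and its lowest placebo libraries were those labelled SP placebo 1 and 2, without which it stood at 0.38. *Sulf2*, which removes sulfate from heparan sulfate, ranged from 16.6 to 21.1 CPM against 22.8 to 31.2 CPM (0.58 ± 0.14, adjusted p = 0.359).

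A pair of neighbouring sulfur genes had like values. *Mpst* (chr15:78406416-78414013, plus strand) and *Tst* (chr15:78399556-78405907, minus strand) encode sulfurtransferases that handle sulfur from cysteine breakdown. *Mpst* ranged from 70.6 to 77.2 CPM in SP placebo and from 86.8 to 99.8 CPM in SP MAT2Ai, without overlap (0.32 ± 0.08, adjusted p = 0.359). *Tst* overlapped by SP MAT2Ai 1, with 65.0, 90.1, 87.3, 77.3 and 82.1 CPM in SP MAT2Ai 1 to 5 against 58.2 to 65.9 CPM (0.37 ± 0.09, adjusted p = 0.359). In WT kidneys they stood at 0.01 ± 0.08 and −0.06 ± 0.09.

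Other named genes with separated groups had varied roles. The 171 separated higher genes are not all listed. *Exoc4* of the exocyst (25.2 to 33.3 CPM against 35.5 to 48.0 CPM; 0.50 ± 0.09, adjusted p = 0.0691), *Aaas* of the nuclear pore (0.46 ± 0.10, 0.237), *Rhoq*, a small GTPase of glucose uptake (0.41 ± 0.10, 0.359), *Hmgn5*, which binds nucleosomes (0.31 ± 0.08, 0.425), and *Pcdh7*, a protocadherin (0.56 ± 0.15, 0.544), lay higher in every inhibitor library. So did the growth factor *Fgf18* (0.843 to 2.39 CPM against 3.17 to 11.7 CPM; 1.96 ± 0.44, adjusted p = 0.261), *Socs2*, which damps growth hormone signalling (1.23 ± 0.42, 0.804), the apolipoprotein *Apoc1* (0.63 ± 0.21, 0.804) and the noncoding *Snhg15* (0.97 ± 0.25, 0.459). *Malat1*, a nuclear noncoding RNA, was widely spread and overlapped (440 to 1019 CPM against 605 to 1393 CPM; 0.29 ± 0.26, adjusted p = 0.984; 0.03 without SP MAT2Ai 4).

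On the lower side, *Cadm1*, an adhesion molecule, ranged from 14.0 to 16.4 CPM in SP placebo and from 10.3 to 13.6 CPM in SP MAT2Ai (−0.39 ± 0.09, adjusted p = 0.359). *Jag2*, a ligand of Notch, ranged from 3.60 to 5.01 CPM against 2.10 to 3.47 CPM (−0.65 ± 0.17, adjusted p = 0.477), and *Adgrl4*, an adhesion receptor of endothelial cells, from 8.16 to 14.1 CPM against 5.70 to 7.75 CPM (−0.66 ± 0.18, adjusted p = 0.528). None of these passed the test. *Immp2l* of the mitochondrial inner membrane (−0.53 ± 0.13), *Serpinb8* (−0.48 ± 0.13), *B3galnt1*, which makes globoside (−0.49 ± 0.14), *Tmem178b* (−0.64 ± 0.18), *Rbms3*, an RNA-binding protein (−0.62 ± 0.19), *Wdr5b* (−0.44 ± 0.15) and *Stbd1*, which tethers glycogen (−0.33 ± 0.11), were also apart, with adjusted p between 0.425 and 0.804. *Tmem47*, a tight junction protein, had the smallest p of the lower genes named but overlapped by 1 library (2.59 to 4.86 CPM against 1.61 to 2.69 CPM; −0.81 ± 0.18, adjusted p = 0.261).

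Clock genes, which cycle over the day, had values of both signs. *Nr1d1* (REV-ERBα), a repressor that falls and rises daily, stood at 41.1, 49.3, 39.9, 24.9 and 48.6 CPM in SP placebo 1 to 5 and at 30.1, 14.3, 21.7, 25.5 and 20.02 CPM in SP MAT2Ai 1 to 5, lower but for SP placebo 4 (−0.87 ± 0.22, adjusted p = 0.447). *Nfil3*, a repressor of the opposite phase, stood at 2.09 to 7.66 CPM and at 8.26, 12.8, 29.4, 12.7 and 10.8 CPM in SP MAT2Ai 1 to 5 (1.54 ± 0.48, adjusted p = 0.773; 1.13 without SP MAT2Ai 3). *Cry1*, a repressor of the core loop, had a positive value (0.66 ± 0.24). Of 20 measured clock genes 10 were positive, 4 higher and 2 lower at an unadjusted p under 0.05, and without the libraries labelled SP placebo 1 and 2 13 were positive, 1 higher and 1 lower. Over all genes tested 3.08% were higher and 2.84% lower at that p with every library. The hour at which each kidney was taken is not given in the sources used here, and its part in these values was not tested.

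In methionine metabolism no gene passed. Of 17 measured genes of the methionine cycle 10 had positive values with a median of 0.02. Without the libraries labelled SP placebo 1 and 2 the count was 8 and the median −0.0071. At an unadjusted p under 0.05 only 1 of the 17 was lower, where 2.84% of all genes were lower. It was *Mtr*, the methionine synthase, at 8.16 to 10.1 CPM in SP placebo and 6.75 to 8.35 CPM in SP MAT2Ai (−0.20 ± 0.08, adjusted p = 0.833). *Nnmt*, which spends SAM on nicotinamide, was close to absent at 0.0304 to 0.326 CPM over the SP libraries (−0.85 ± 0.56, adjusted p = 0.954). In transsulfuration, folate and choline metabolism 16 of 25 were positive (12 without the libraries labelled SP placebo 1 and 2). *Aldh1l1*, which returns formyl-tetrahydrofolate to the folate pool, was apart, at 532 to 603 CPM against 615 to 707 CPM (0.20 ± 0.09, adjusted p = 0.833), and *Ftcd*, which degrades histidine into that pool, stood at 0.47 ± 0.23 with SP MAT2Ai 4 far above the others, and at 0.23 without it. Over all genes tested 1.06% lay apart and higher. Polyamine and methionine salvage genes were positive in 8 of 16 with a median of 0.00365 (10 and 0.018 without the libraries labelled SP placebo 1 and 2).

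The enzymes that use SAM showed small values. Of 11 measured protein arginine methyltransferases and partners 9 were positive with a median of 0.03. *Prmt5*, which methylates splicing proteins, was apart, at 32.2 to 36.7 CPM in SP placebo and 36.9 to 40.1 CPM in SP MAT2Ai (0.14 ± 0.06, adjusted p = 0.833), while *Carm1* overlapped (0.08 ± 0.05, 0.939). *Ehmt2* (G9a), which methylates lysine 9 of histone H3, was the 1 of 32 other histone lysine methylation genes that was apart (99.4 to 105 CPM against 107 to 115 CPM; 0.11 ± 0.04, adjusted p = 0.833). Over all genes tested 1.06% lay apart and higher, so 1 such gene is not read as a trait of its list. Among 15 measured genes of PRC2, which methylates lysine 27, and of its opposing demethylases, 11 were positive. *Jarid2*, which guides PRC2 to DNA, stood at 28.0, 25.4, 30.7, 28.8 and 37.0 CPM in SP placebo 1 to 5 and at 46.6, 36.1, 42.0, 58.9 and 32.2 CPM in SP MAT2Ai 1 to 5 (0.52 ± 0.15, adjusted p = 0.591). *Aebp2*, another PRC2 cofactor, stood at 0.06 ± 0.06 (0.986) and *Mbd1*, which binds methylated DNA, at 0.64 ± 0.23 (0.833). Genes of RNA m6A (12 of 19 positive) and DNA methylation (7 of 13) had medians of 0.02 and 0.01. Without the libraries labelled SP placebo 1 and 2 the positive counts were 11 and 10 and the medians 0.01 and 0.04.

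Fatty acid oxidation genes leaned upward and sterol and ER genes downward, without a member passing the test. Of 36 measured oxidation genes 32 were positive (31 without the libraries labelled SP placebo 1 and 2) with a median of 0.14. *Ehhadh* of peroxisomal oxidation stood at 322 to 390 CPM in SP placebo and at 472, 414, 494, 373 and 473 CPM in SP MAT2Ai 1 to 5 (0.32 ± 0.09, adjusted p = 0.586), and the carnitine transferases *Cpt2* and *Cpt1a* at 0.25 ± 0.10 and 0.18 ± 0.08. The library labelled SP placebo 1 was the lowest placebo library for 26 of the 36 genes. Of 23 measured targets of NRF2, a factor that answers oxidants and electrophiles, 22 were positive, with a median of 0.16. Without the libraries labelled SP placebo 1 and 2, 18 were positive. *Gstp1* stood at 0.16 ± 0.06 and *Nqo1* at 0.28 ± 0.15, or 0.17 without these 2 libraries. The 13 mitochondrially encoded mRNAs were all positive with a median of 0.17, which became 0.27 without the libraries labelled SP placebo 1 and 2 and 0.09 without SP placebo 5 (*mt-Nd6* 0.38 ± 0.14, *mt-Atp6* 0.32 ± 0.14), whereas 17 of 32 nuclear genes of oxidative phosphorylation were positive with a median of 0.0030. The share of counts from the mitochondrial genome overlapped, at 12.4% to 19.5% in SP placebo and 14.1% to 18.5% in SP MAT2Ai.

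ER chaperones, which fold secreted and membrane proteins, were negative in 19 of 20 measured genes, 7 of them at an unadjusted p under 0.05, with a median of −0.18. At that p 2.84% of all genes tested were lower. The 7 became 4 without the libraries labelled SP placebo 1 and 2, 4 without the second of these alone, 1 without SP MAT2Ai 3 and 3 without SP placebo 5, SP MAT2Ai 4 or SP MAT2Ai 5, while 19 were negative in each of these. *Dnajc3* ranged from 232 to 258 CPM in SP placebo and from 204 to 233 CPM in SP MAT2Ai (−0.20 ± 0.06, adjusted p = 0.774), *Pdia3* stood at −0.18 ± 0.07, *Dnajb11* at −0.19 ± 0.08 and *Sdf2l1* at −0.56 ± 0.24 (adjusted p = 0.833 for each). SP MAT2Ai 1 to 5 lay below every placebo library for 2, 8, 17, 13 and 15 of these 20 genes, so SP MAT2Ai 1 stood with the placebo group here. The median in WT kidneys was 0.01. Sterol synthesis genes were negative in 19 of 24 with a median of −0.10, and their summed CPM did not overlap, at 1470 to 1541 in SP placebo and 1362 to 1422 in SP MAT2Ai. *Srebf2*, the master factor of this pathway, was apart at 59.7 to 73.5 CPM against 54.0 to 56.9 CPM (−0.19 ± 0.08, adjusted p = 0.833; −0.11 without the libraries labelled SP placebo 1 and 2), and *Insig1* (−0.31 ± 0.15), which holds back its activation, overlapped.

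Markers of vessels, blood cells and the interstitium were lower in part of the inhibitor libraries. Of 18 measured endothelial genes 17 were negative, 10 at an unadjusted p under 0.05 (1 without the libraries labelled SP placebo 1 and 2, 3 without SP placebo 5, 5 without SP MAT2Ai 2 and 6 without the library labelled SP placebo 1), with a median of −0.45 (−0.33 without the first 2). At that p 2.84% of all genes tested were lower with every library. *Plvap*, of fenestrated capillaries, stood at 50.8, 52.5, 38.7, 29.2 and 55.6 CPM in SP placebo 1 to 5 and at 35.4, 21.9, 27.6, 33.7 and 25.8 CPM in SP MAT2Ai 1 to 5 (−0.65 ± 0.25, adjusted p = 0.833). SP placebo 4 lay among the inhibitor libraries. *Cdh5*, which joins endothelial cells, stood at −0.51 ± 0.19, *Pecam1* at −0.48 ± 0.18 and *Robo4*, a guidance receptor of vessels, at −0.62 ± 0.21. The summed CPM of the endothelial genes was 243 to 378 in SP placebo and 277, 196, 244, 285 and 211 in SP MAT2Ai 1 to 5. In such bulk tissue fewer cells of a type and less RNA per cell cannot be told apart.

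Matrix and interstitial genes followed a like order of libraries. Of 25 measured collagen and matrix genes 20 were negative with a median of −0.28, which became −0.13 without SP placebo 5 (the highest placebo library for 21 of them), −0.17 without SP MAT2Ai 3 and −0.45 without SP MAT2Ai 4. SP MAT2Ai 1 to 5 lay below every placebo library for 1, 14, 18, 0 and 16 of them. The collagen-binding protein *Sparc* stood at −0.42 ± 0.16, *Col14a1* at −0.59 ± 0.26 and *Postn* (periostin), at 0.150 to 1.14 CPM over the SP libraries, at −1.03 ± 0.49 (adjusted p between 0.833 and 0.844). Of 16 myofibroblast and TGF-beta genes 14 were negative with a median of −0.17 (12 without the libraries labelled SP placebo 1 and 2), among them *Tgfb1* (−0.39 ± 0.14), desmin *Des* (−0.54 ± 0.23) and the PDGF receptors *Pdgfrb* (−0.42 ± 0.20) and *Pdgfra* (−0.79 ± 0.38). Thus the libraries in which the immediate early genes were highest, SP MAT2Ai 2, 3 and 5, were also those with most matrix genes below placebo. The part of cell makeup in either was not tested.

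T and B lymphocyte markers were negative in 16 of 18 measured genes with a median of −0.46 (−0.73 without SP MAT2Ai 1), macrophage and dendritic markers in 16 of 19 with a median of −0.29 (−0.19 without SP MAT2Ai 5), and erythroid markers in 9 of 10 with a median of −0.56 (−0.31 without SP placebo 5). Neutrophil markers went the other way, with 5 of 6 positive and a median of 0.24, which became 1.05 without SP placebo 1 and 2 and −0.01 without SP MAT2Ai 3. *Trac* of T cells stood at 2.34 to 4.62 CPM in SP placebo and at 1.58 to 2.61 CPM in SP MAT2Ai (−0.82 ± 0.33, adjusted p = 0.833). *Ighm*, the IgM heavy chain, rested on SP placebo 5, with 15.5 CPM against at most 3.79 CPM elsewhere, and its value of −1.27 ± 0.56 became −0.37 without that library. The same library held the most *Hba-a1* (222 CPM against 66.1 to 121 CPM in the other placebo libraries; −0.85 ± 0.30) and *Alas2*, the first enzyme of erythroid haem synthesis (−0.98 ± 0.35), which became −0.50 and −0.51 without it. The complement genes *C1qc* (−0.38 ± 0.19) and *C1qa* (−0.47 ± 0.25) of macrophages had adjusted p of 0.850 and 0.888. Summed CPM ranged from 158 to 531 against 106 to 367 for lymphocytes, from 84.3 to 143 against 61.6 to 110 for macrophages and from 524 to 1232 against 391.7 to 821 for erythroid genes, overlapping for each, and the part of blood left in the tissue was not tested.

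Tubule genes gave small values. Of 20 measured genes of proximal tubule segments S1 and S2 10 were positive, with a median of 0.00043, and of 13 S3 genes 4 (2 without SP placebo 1 and 2) with a median of −0.06 (−0.19). In the collecting duct 13 of 18 were positive with a median of 0.13, among them the sodium channel subunit *Scnn1a* (0.30 ± 0.11) and pendrin *Slc26a4* (0.33 ± 0.14; 0.18 without SP MAT2Ai 3). Glucose carriers and glucose handling genes were positive in 3 of 18 (8 without the libraries labelled SP placebo 1 and 2). *Mtor*, the growth kinase, stood at 288 to 338 CPM and 273 to 320 CPM (−0.06 ± 0.09, adjusted p = 0.990; −0.01 without the libraries labelled SP placebo 1 and 2).

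Injury and antigen presentation genes had larger values in WT than in SP kidneys, and no gene passed the test of the difference. *Havcr1* (KIM-1), which injured tubules express, stood at 28.5, 13.7, 23.8, 30.8 and 42.3 CPM in SP placebo 1 to 5 and at 24.4, 65.9, 23.8, 28.7 and 18.3 CPM in SP MAT2Ai 1 to 5 (0.21 ± 0.78, adjusted p = 0.995; 0.0038 without SP placebo 1 and 2). Of 27 tubular injury genes 17 were positive in SP with a median of 0.11 (0.03 without the libraries labelled SP placebo 1 and 2, 0.05 without SP MAT2Ai 2), and 27 in WT with a median of 0.96. MHC class I and immunoproteasome genes had medians of −0.01 in SP and 1.11 in WT, and MHC class II genes of −0.15 and 1.85. On the first principal component of all 20 libraries WT MAT2Ai 2 stood at 89.7, against −22.9 to 21.8 for the other 19, and its part in the WT medians was not tested. Acute phase genes had medians of 0.61 (0.17 without SP MAT2Ai 2) and 2.495, with *Saa3* (2.45 ± 1.27; 4.74 without the libraries labelled SP placebo 1 and 2) and *Serpina3n* (2.05 ± 1.14) at or below 0.891 CPM in every SP library. The test of the difference between the SP and the WT response called 0 genes (edgeR quasi-likelihood, smallest adjusted p = 0.842), with 903 at an unadjusted p under 0.05; DESeq2 and the edgeR likelihood ratio test called 1 each, and limma-voom 0.

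**Figure D4:**
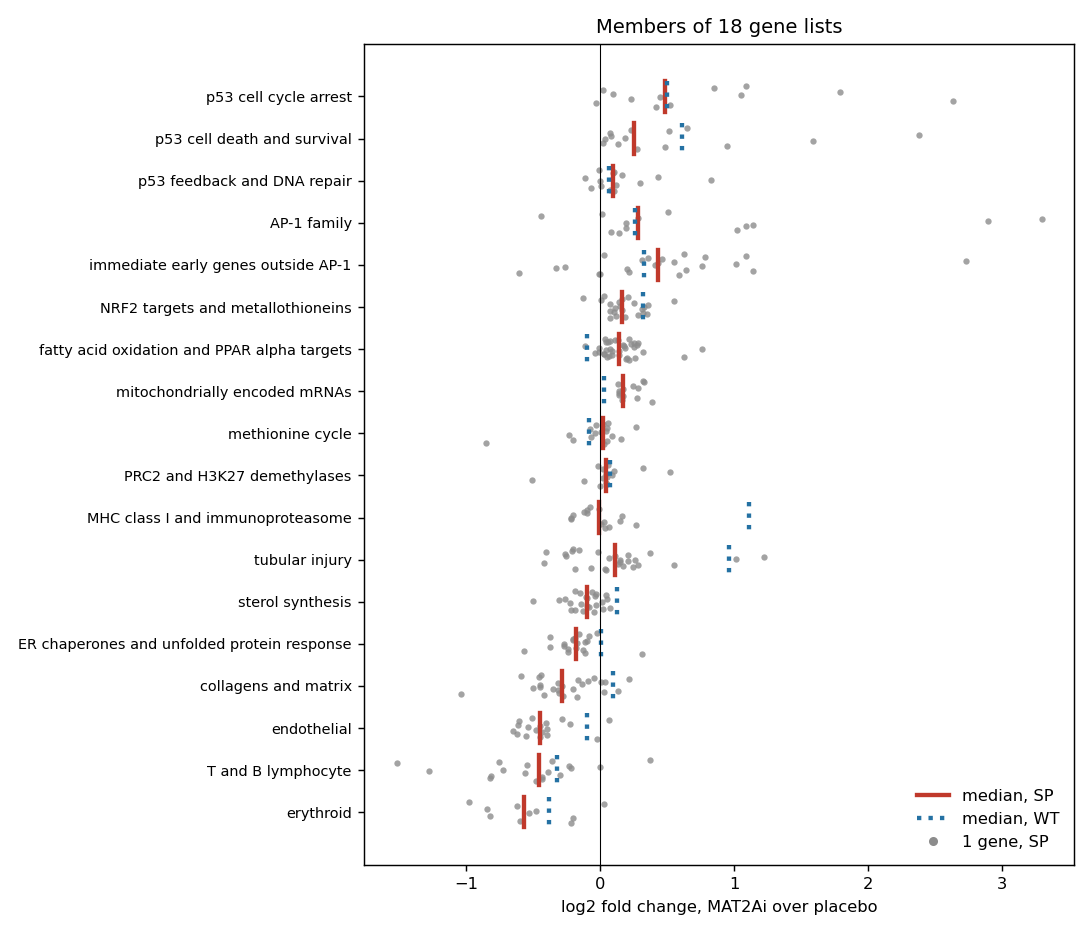
Log2 fold changes of MAT2Ai over placebo for the measured members of 18 gene lists; each grey point is 1 gene in SP kidneys, the red line is the SP median and the dotted blue line the WT median of the same genes. The p53 lists have medians of 0.49, 0.25 and 0.10 in SP, the endothelial, lymphocyte and erythroid lists of −0.45, −0.46 and −0.56, and the tubular injury and MHC class I lists lie near 0 in SP and near 1 in WT.

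The genes that led in SP kidneys were mostly also positive in WT kidneys, which have their own placebo group. Of all genes 59.5% had the same sign in both genotypes, of the 497 genes higher at an unadjusted p under 0.05 in SP 74.6%, and of the 459 lower ones 67.3%. All 6 genes with an adjusted p under 0.1 in SP were positive in WT, and 4 of them (*Ly6e*, *Phlda3*, *Eda2r* and *Exoc4*) did not overlap there either. *Ly6e* stood at 65.5 to 95.5 CPM in WT placebo and at 127 to 288 CPM in WT MAT2Ai (1.22 ± 0.25), *Phlda3* at 1.35 ± 0.28, *Eda2r* at 2.08 ± 0.43, *Ccng1* at 0.60 ± 0.16 and *Mdm2* at 0.35 ± 0.09, each close to its SP value.

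*Fos*, *Egr1* and *Fosb*, the immediate early genes with the largest SP values, had negative values in WT. *Fos* stood at −0.33 ± 0.68, *Egr1* at −0.05 ± 0.59 and *Fosb* at −1.33 ± 0.71 in WT kidneys, and the WT placebo group itself was wide for *Fos* (0.455 to 8.63 CPM). *Dscaml1* was smaller in WT (1.45 ± 0.54) than in SP, *Jarid2* was negative (−0.41 ± 0.15) and *Ehhadh* stood at −0.15 ± 0.09. The lists of *Fos*, *Egr1* and *Fosb* had positive medians in WT too. There 11 of 13 AP-1 genes and 16 of 23 other immediate early genes were positive, with medians of 0.26 and 0.32. The fatty acid oxidation list, which holds *Ehhadh*, was positive in WT for 15 of 36 genes, with a median of −0.09. The difference between the 2 responses passed the test for none of these genes with edgeR quasi-likelihood.

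**Figure D5:**
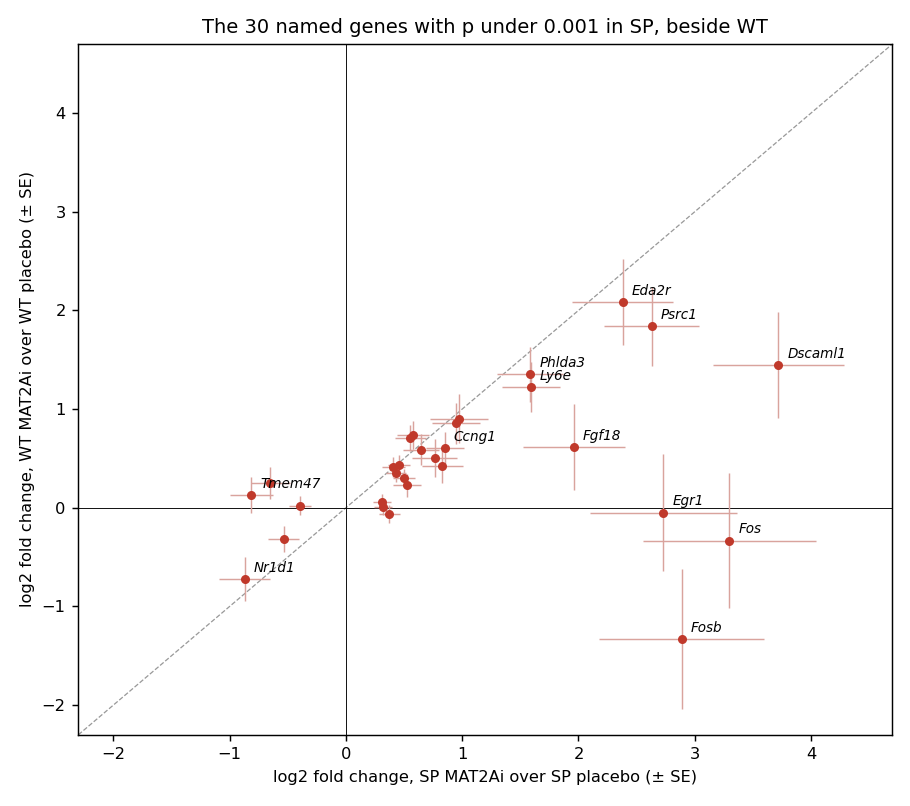
Log2 fold change of MAT2Ai over placebo in SP kidneys (horizontal axis) and in WT kidneys (vertical axis) for the 30 named genes with an unadjusted p under 0.001 in SP; bars are SE and the dashed line marks equal values. The genes were chosen by their SP values. Of the 30, 23 have the same sign in WT, and *Fos*, *Egr1* and *Fosb* lie far below the line.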

How the data were processed

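Per the labels and the study's methods, total RNA of kidney cortex (the labels also speak of nuclei) was poly(A)-selected, made into directional libraries, sequenced on a NovaSeq, aligned with STAR to mm10 and counted by htseq with Ensembl 78; the strand setting is not given in the sources used here, so antisense partners cannot be told apart. The deposited values are raw counts per gene, with no scaling. Symbols and positions were taken from GENCODE M21 (42546 of 43430 IDs matched), and 5 summary lines per file were left out.

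Counts of all 20 libraries were filtered with filterByExpr (16152 genes), scaled by TMM and fitted with the edgeR 4.0.16 quasi-likelihood test in R 4.3.3, with 1 coefficient per group; p was adjusted by Benjamini-Hochberg over all genes, and every gene-level p comes from this fit unless another tool is named. SE is the log2 fold change over the square root of F. DESeq2 1.42.0 and limma 3.58.1 were alternatives. Scripts were tested on simulated data.

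Genes were named by a rule: those the study names, all with an adjusted p under 0.1, the 20 next smallest p among genes averaging 1 CPM or more, the 8 largest values in each direction among such genes with separated groups and p under 0.01, and up to 4 members of each list described; predicted gene models were passed over, and some genes that the rule names are not reported here. The members and the 53 lists were chosen with earlier results of these data known. Since nothing says more of the animals than 1 library each, p-values measure the spread between libraries within groups, over all 20 libraries. Deviations of the same-numbered libraries of the 2 SP groups correlated at −0.135 to −0.0782. No likeness by replicate number was seen in these SP pairs, but 5 pairs cannot exclude that the animals were paired. Over any 2 groups the 30 same-numbered pairs correlated at −0.157 to 0.265, and 4 of them lay over 0.1.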

Additional observations from a re-analysis of the deposited data

Results flagged for a closer look

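Groups of 5 SP libraries were taken over the genes described and the 2 SP groups. In 20 of 230 groups (8.7%) the highest or lowest library lay far from the other 4. Its gap to the nearest was more than 0.71 of the group's range. That limit marks about 1 in 20 groups of independent, normally distributed values. These genes share the same libraries and were partly chosen by their values, so no excess over that rate can be read. SP MAT2Ai 4 accounted for 5 of the 20 groups, SP placebo 1 for 4 and SP placebo 5 for 3.

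In SP MAT2Ai 4 the highest values were *Ccl2* at 1.57 CPM, *Malat1* at 1393 CPM, *Apoc1* at 1.75 CPM, *Nnmt* at 0.283 CPM and *Ftcd* at 18 CPM. In SP MAT2Ai 1 they were *Ly6a* at 902 CPM and *Gstp1* at 86.2 CPM, in SP MAT2Ai 2 *Havcr1* at 65.9 CPM, in SP MAT2Ai 3 *Nfil3* at 29.4 CPM and *Slc26a4* at 101 CPM, and in SP MAT2Ai 5 *Fosb* at 2.11 CPM.

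Among the placebo libraries, the one labelled SP placebo 1 was lowest for *Ccng1* (167 CPM) and *Gstp1* (58.3 CPM) and highest for *Nfkbiz* (4.41 CPM) and *Saa3* (0.122 CPM). The one labelled SP placebo 2 was lowest for *Hmgn5* (42.5 CPM) and highest for *Srebf2* (73.5 CPM), and SP placebo 5 was highest for *Mtr* (10.1 CPM), *Ighm* (15.5 CPM) and *Alas2* (33.6 CPM).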

How the results depend on the processing

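The count of genes higher in SP MAT2Ai (3) became 22 with DESeq2, 14 with limma-voom with sample weights, 18 with the edgeR likelihood ratio test, 10 in a fit of the 10 SP libraries alone and 17 without WT MAT2Ai 2, 3 and 4. Of the genes given above as not passing, *Cdkn1a*, *Eda2r*, *Ephx1*, *Mdm2* and *Sulf2* passed in both of the last 2 fits, and *Ccng1*, *Eda2r*, *Exoc4*, *Mdm2*, *Mgmt*, *Phlda3* and *Dglucy* with all 3 other tools. It became 0 without the libraries labelled SP placebo 1 and 2, in all groups or, as chosen after seeing the data, in the SP libraries alone, and ranged from 0 to 7 when 1 library was left out. Genes lower (0) became 5 with DESeq2 (*Adgrf3*, *Cadm1*, *Cd7*, *Nr1d1*, *Tmem47*), 3 with limma-voom (*Cadm1*, *Cd7*, *Tmem47*) and 2 with the likelihood ratio test (*Cd7*, *Tmem47*). Genes whose response differed between SP and WT (0) became 1 with DESeq2 and with the likelihood ratio test, *Adgrf3* in both. *Cd7* and *Adgrf3* are named here after their values were seen. The causes were not tested. Whether replicate numbers pair the animals is not known. With a replicate block 4 genes were higher and 0 lower, and the smallest adjusted p was 0.00594 (edgeR quasi-likelihood).

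Of 2408 values of 115 genes under the alternatives, 19 in 5 genes changed sign. Without the libraries labelled SP placebo 1 and 2, *Slc5a2* became 0.158 (0.151 in the SP libraries alone), *Mat2a* −0.0254 (−0.0327), *Ccl2* 0.174 (0.167) and *Ecsit* −0.00134 (−0.0088), and *Havcr1* became −0.00432 in the SP libraries alone and −0.243 with the replicate block. With 1 library left out *Mat2a* ranged from −0.00165 to 0.208, *Ccl2* from −0.671 to 0.107 and *Havcr1* from −0.227 to 0.409. Scarce genes such as *Dscaml1*, with 13 counts over the 5 placebo libraries, are limited by counting.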
